A study of Mus musculus with 6 samples.

Results

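Expression of 10 genes of inflammatory signalling was followed in brite adipocytes after knockdown (KD) of the long noncoding RNA *Ctcflos*. The genes were chosen by symbol among the 52089 gene symbols of the deposited expression table. They are the chemokine genes *Ccl2*, *Ccl7*, *Cxcl1*, *Cxcl5*, *Cxcl10* and *Cxcl12*, the cytokine genes *Il6* and *Csf1*, and the genes of the NF-κB feedback inhibitors *Nfkbia* and *Tnfaip3*. Preadipocytes of the inguinal white fat depot of 129SvEv mice had been induced in culture for 2 days. The paper's induction medium held dexamethasone, indomethacin, isobutylmethylxanthine, insulin, triiodothyronine and rosiglitazone, an agonist of the adipocyte receptor PPARγ that drives browning. The cells were then differentiated for 1 day with insulin, triiodothyronine and rosiglitazone, and reverse transfected with a locked nucleic acid (LNA) gapmer at 50 nM. Such an oligonucleotide pairs with its target RNA and directs its cleavage. The Ctcflos KD group (3 libraries) received a gapmer against *Ctcflos* and the control group (3 libraries) a nontargeting gapmer, and total RNA was taken 24 h later. Both groups therefore carry an oligonucleotide and the transfection, and no untransfected cells were included. The cells were a primary culture of the stromal-vascular fraction, and the labels do not say whether replicates were separate cultures or animals, so p-values cover only the spread between these libraries.

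NF-κB is a family of transcription factors held in the cytoplasm by inhibitor proteins such as IκBα, the product of *Nfkbia*. Signals from receptors for tumour necrosis factor, interleukin-1 or microbial products activate a kinase complex that marks the inhibitor for degradation, and the freed factor then switches on chemokine and cytokine genes together with *Nfkbia* and *Tnfaip3*, whose products shut the pathway down again. Fat cells and their precursors release several of these chemokines, which draw monocytes, neutrophils and T cells into the tissue. *Cxcl12* is made steadily by stromal cells, where it retains progenitor and haematopoietic cells.

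For 7 of the 10 genes RefSeq gave a promoter on build GRCm38.p6. The 250 bases before the transcription start are shown for those genes whose KD values differed most from control in at least 2 KD libraries, for *Nfkbia* as the classical feedback gene, and for *Cxcl12* as the gene with lower values. Capitals mark matches to the degenerate 10-base κB consensus, searched on both strands. The regions are chr5:90890995-90891244 (plus strand) for *Cxcl1*, chr5:92348890-92349139 (minus) for *Cxcl10*, chr5:30012864-30013113 (plus) for *Il6*, chr10:19015411-19015660 (minus) for the second of 2 *Tnfaip3* promoters, chr12:55492648-55492897 (minus) for *Nfkbia* and chr6:117168285-117168534 (plus) for *Cxcl12*.
Cxcl1: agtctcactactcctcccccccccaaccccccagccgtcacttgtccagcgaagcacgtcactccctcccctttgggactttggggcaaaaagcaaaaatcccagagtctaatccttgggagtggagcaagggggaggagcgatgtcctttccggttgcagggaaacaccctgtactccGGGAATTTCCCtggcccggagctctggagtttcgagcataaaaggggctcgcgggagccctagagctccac
Cxcl10: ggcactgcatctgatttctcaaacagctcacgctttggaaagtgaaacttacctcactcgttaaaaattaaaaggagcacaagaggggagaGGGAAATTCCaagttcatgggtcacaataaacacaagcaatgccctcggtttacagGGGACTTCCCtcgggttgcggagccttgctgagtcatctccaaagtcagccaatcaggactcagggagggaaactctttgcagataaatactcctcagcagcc
Il6: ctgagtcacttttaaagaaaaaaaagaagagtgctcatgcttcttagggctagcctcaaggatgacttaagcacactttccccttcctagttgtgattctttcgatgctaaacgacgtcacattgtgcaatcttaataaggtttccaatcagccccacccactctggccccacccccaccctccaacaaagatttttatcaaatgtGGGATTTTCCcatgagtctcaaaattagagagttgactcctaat
Tnfaip3: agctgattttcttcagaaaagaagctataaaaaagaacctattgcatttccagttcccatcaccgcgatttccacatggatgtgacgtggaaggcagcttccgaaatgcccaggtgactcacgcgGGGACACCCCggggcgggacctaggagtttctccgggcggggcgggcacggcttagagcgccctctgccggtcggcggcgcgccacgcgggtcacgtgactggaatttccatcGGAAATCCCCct
Nfkbia: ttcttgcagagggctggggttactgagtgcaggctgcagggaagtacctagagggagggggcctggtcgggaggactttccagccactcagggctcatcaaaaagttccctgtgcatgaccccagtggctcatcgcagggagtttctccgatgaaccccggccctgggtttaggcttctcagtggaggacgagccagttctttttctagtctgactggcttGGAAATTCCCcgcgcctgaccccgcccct
Cxcl12: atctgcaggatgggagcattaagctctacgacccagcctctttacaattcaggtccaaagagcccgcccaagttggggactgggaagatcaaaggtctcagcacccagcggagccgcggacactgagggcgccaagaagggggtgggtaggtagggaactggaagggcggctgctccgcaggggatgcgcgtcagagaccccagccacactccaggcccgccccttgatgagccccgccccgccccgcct

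A κB match stood 71 to 61 bases before the start of *Cxcl1*, where matches on the 2 strands overlapped and form 1 site. *Cxcl10* had 2 matches, at 159 to 150 and at 103 to 94 bases before the start. *Il6* had 1 at 44 to 35 bases, *Nfkbia* 1 at 29 to 20 bases, and the second *Tnfaip3* promoter 2, at 125 to 116 and at 12 to 3 bases. The *Csf1* promoter, not printed, had 1 match at 154 to 145 bases. The *Cxcl12* promoter and the first *Tnfaip3* promoter had none. Of all 32851 mouse promoters of this length in the same source, 3.90% held a κB match. The core of the interferon-stimulated response element, GAAANNGAAA, was present in 2.98% of them and, among these genes, in *Cxcl10* at 213 to 204 bases before the start, without overlap with its κB matches. A match describes letters of the sequence and was not linked to binding of a factor.

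Levels are given as RPKM (mapped reads scaled by transcript length and by library depth), averaged over the accessions of a symbol. *Ctcflos* itself stood at 0.0969, 0.0705 and 0.210 RPKM in KD replicates 1, 2 and 3 and at 0.748, 0.751 and 0.840 RPKM in control replicates 1, 2 and 3. The groups did not overlap, KD replicate 3 was the highest of the KD libraries, and the KD mean was 16.1% of the control mean. KD replicate 3 also stood apart from the other KD libraries over the 11701 genes tested. Its root mean square log2 difference was 0.406 from KD replicate 1 and 0.388 from KD replicate 2, but 0.278 from control replicate 2, whereas KD replicates 1 and 2 differed from each other by 0.298. Fold changes of the 10 genes and of most other pathway genes named are therefore given with all 6 libraries and without KD replicate 3. The second fit rests on 2 KD libraries. The library left out was singled out from these same data and was the KD library nearest to control. Leaving it out in itself widens the group difference, so p-values and counts of that fit are a description. It called 4810 of all genes, against 1164 without KD replicate 1 and 1094 without KD replicate 2. The summed level of 15 macrophage and leukocyte markers was 7.69, 7.62 and 23.7 RPKM in the KD libraries and 9.92, 36.5 and 9.99 RPKM in the control libraries, so that it was highest in KD replicate 3 and control replicate 2, mainly by *Lyz2*. *Cd68*, a lysosomal marker of macrophages and the only 1 of the 3 tested markers that passed, was ordered differently, with 4.12, 3.44 and 2.16 RPKM after KD and 0.657, 1.92 and 0.664 RPKM in control (log2 fold change 1.05, limma adjusted p = 0.023). *Csf1r*, the receptor of the *Csf1* product, was under the filter but was likewise higher in every KD library. It had 1.31, 1.48 and 1.10 RPKM after KD and 0.269, 0.833 and 0.438 RPKM in control. Other markers of this list went the other way. *Cd14*, also under the filter, had 0.606, 0.586 and 0.580 RPKM after KD and 0.726, 0.932 and 1.05 RPKM in control. The tested markers *Lyz2* (log2 fold change −1.45, limma adjusted p = 0.17) and *C1qb* (−0.12, limma adjusted p = 0.89) were lower on average. The pan-leukocyte gene *Ptprc* and the T cell gene *Cd3e* were at or near 0. Adipocyte markers such as *Fabp4* and *Adipoq* were abundant in every library, with a sum over 7 genes of 4227 to 5629 RPKM after KD and 5899 to 6556 RPKM in control. In bulk RNA, fewer cells of a type and less RNA per cell cannot be told apart. Depth, recovered from the smallest steps of the RPKM values, was such that 1 RPKM over 1 kb of transcript corresponded to 60.7 to 79.2 reads, which put about 157 to 601 reads on *Il6*, 878 to 2297 on the main *Cxcl12* transcript and 59 to 99 on *Cxcl5*. This depth is above the number of reads per sample that the paper states. Whether 1 unit is a single read or a read pair is not given, so the number of independent fragments may be lower.

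In control cells the levels per length ran from *Cxcl10* (114.9 ± 27.0 RPKM, mean ± SD, n = 3) over *Ccl2* (95.9 ± 15.7), *Ccl7* (69.9 ± 13.3) and *Csf1* (46.3 ± 8.38) to *Nfkbia* (11.5 ± 1.38) and *Cxcl12* (8.35 ± 0.998). *Cxcl1* (4.21 ± 1.68), *Tnfaip3* (2.43 ± 0.933), *Il6* (2.12 ± 0.377) and *Cxcl5* (0.667 ± 0.111) followed. The ranges of neighbours overlapped along the first 4 genes of this order and again from *Cxcl1* over *Tnfaip3* to *Il6*, and were separate at every other step.

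In the comparison of Ctcflos KD with control, *Cxcl12* fell to 51.6% of control and *Il6* rose to 232% of control, and the other genes did not pass the test. These were 2 of the 9 genes tested by limma on log2(RPKM + 1) at a Benjamini-Hochberg adjusted p under 0.05, where 24.0% of all 11701 genes passed. Of the 9, 1 was higher against 11.5% of all genes and 1 was lower against 12.4%, and KD and control libraries did not overlap for 2 of 9 against 44.8% of all genes. The members' shares were thus near or below those of all genes. *Cxcl5*, with a mean under 1 RPKM, was outside the test. At an unadjusted p under 0.05, 3 of the 9 passed, the third being *Tnfaip3*, while 4556 of all 11701 genes did. With KD replicate 3 left out, which leaves 2 KD libraries chosen from these data, 5 of 9 passed against 41.1% of 11704 genes. Then 4 were higher (*Cxcl1*, *Cxcl10*, *Il6* and *Tnfaip3*) against 23.3%, and 1 was lower (*Cxcl12*) against 17.8%.

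**Figure D1:**
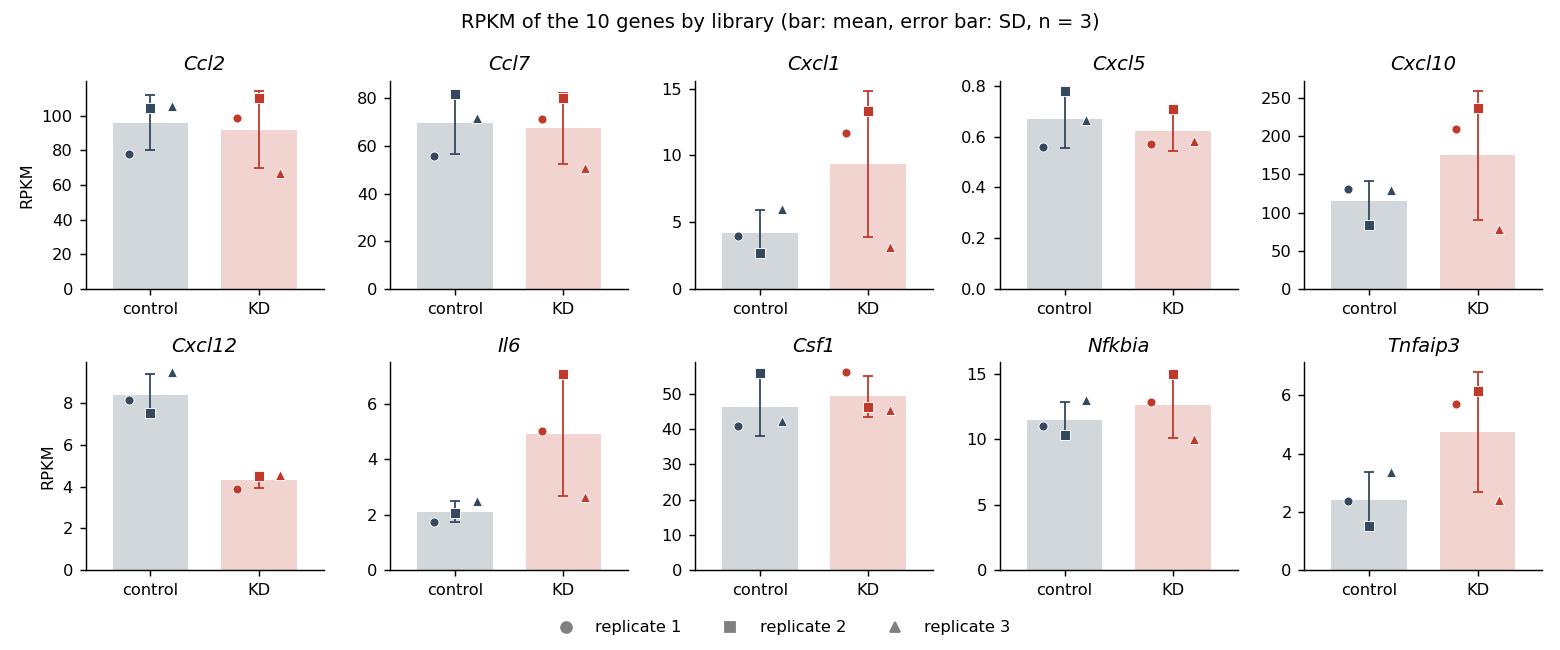
Level of each of the 10 genes in RPKM (linear axis from 0) in the 3 control libraries (grey) and the 3 Ctcflos KD libraries (red); symbols mark replicates 1 to 3, bars the mean and error bars the SD. *Cxcl12* was lower in all 3 KD libraries, while *Cxcl1*, *Cxcl10*, *Il6* and *Tnfaip3* were high in KD replicates 1 and 2 and near control in replicate 3.

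*Cxcl12* encodes the ligand of the receptor CXCR4. Its level was 3.86, 4.50 and 4.57 RPKM after KD and 8.11, 7.50 and 9.45 RPKM in control. All KD libraries, KD replicate 3 included, lay below all control libraries. The log2 fold change was −0.81 (SE 0.116, 95% interval −1.08 to −0.55, limma adjusted p = 0.0058), and −0.85 without KD replicate 3 (adjusted p = 0.0018). The exact two-sided permutation test of the mean RPKM gave p = 0.1, the smallest that 3 against 3 libraries allow. Of 7 progenitor markers 4 were tested, with 2 positive and 2 negative log2 fold changes and a median of −0.10. Only *Pdgfra* passed, from 21.0, 19.7 and 24.6 RPKM in control to 12.2, 13.1 and 14.0 RPKM after KD (log2 fold change −0.69, adjusted p = 0.010), while *Pdgfrb* (0.17), *Cd34* (0.17) and *Ly6a* (−0.36) did not. The sum of the 7 adipocyte markers was also lower in every KD library, and among them *Cebpa*, an adipogenic transcription factor, fell (log2 fold change −0.89, adjusted p = 0.038). The part of cell makeup in the *Cxcl12* result was not tested.

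The lower *Cxcl12* level was uneven over its transcripts, which lie at chr6:117168535-117181367 on the plus strand of GRCm38, the build of all positions given here. The table holds 6 accessions. The 3-exon transcript NM_021704, which encodes the alpha form and ends in an exon of 1578 bases (chr6:117173492-117175069), had 6.78, 8.04 and 7.69 RPKM after KD against 15.7, 13.9 and 18.4 RPKM in control. It stood at 46.9% of control without overlap of the groups, and the accessions AK075596 (46.8%) and AK045092 (47.2%) were alike. The 4-exon transcript NM_013655, the beta form, which continues to a last exon at chr6:117178583-117181366, had 1.81, 1.98 and 2.48 RPKM after KD against 2.37, 2.74 and 2.56 RPKM in control. It stood at 81.7% of control and the groups overlapped. NM_001012477, the gamma form, stood at 79.8% and AK157553 at 81.9%, again with overlap. Transcripts of the gene share exons and hence reads, so these values are a description without a test. About 878 to 2297 reads per library lay on NM_021704 and 428 to 680 on NM_013655.

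**Figure D2:**
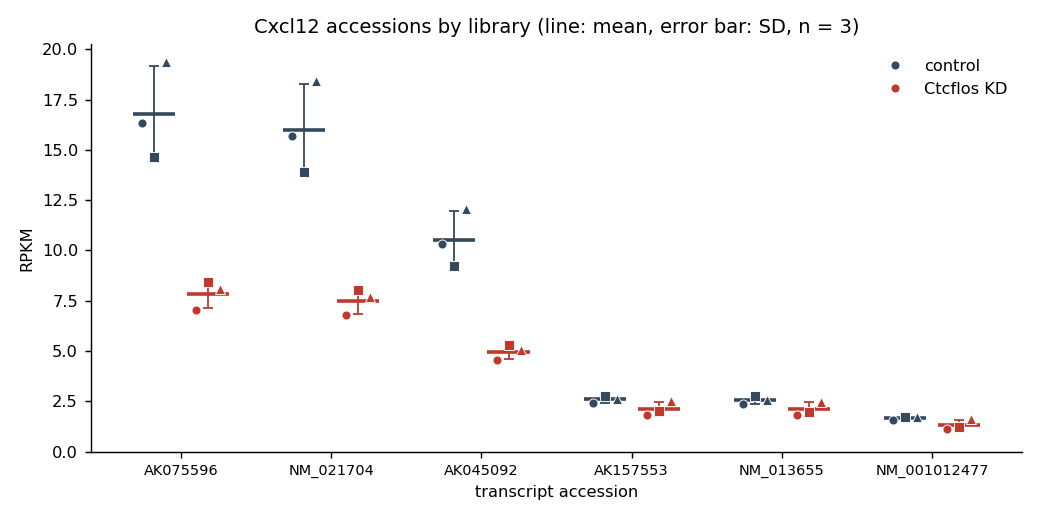
RPKM (linear axis from 0) of the 6 *Cxcl12* accessions in control (grey) and Ctcflos KD (red) libraries; symbols mark the replicates, horizontal lines the mean and error bars the SD. The 3 accessions at the left stood at 46.8 to 47.2% of control without overlap, the 3 at the right at 79.8 to 81.9% with overlap.

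The remaining chemokines did not pass the test with all libraries. *Cxcl1* (chr5:90891241-90893115, plus strand) encodes a ligand of CXCR2 that attracts neutrophils. Its level was 11.6, 13.3 and 3.15 RPKM after KD and 3.95, 2.67 and 6.01 RPKM in control. KD replicates 1 and 2 lay above every control library and KD replicate 3 lay within the control range. The log2 fold change was 0.85 (SE 0.450, interval −0.18 to 1.89, adjusted p = 0.20). In the fit lacking KD replicate 3 it was 1.42 (SE 0.241, adjusted p = 0.0037), and the mean of KD replicates 1 and 2 was 2.97 times the control mean.

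*Cxcl10* (chr5:92346638-92348889, minus strand) encodes a ligand of CXCR3 that attracts T cells and is induced by interferons as well as by NF-κB. It had 209.5, 236.7 and 78.8 RPKM after KD and 131.5, 83.8 and 129.5 RPKM in control. KD replicates 1 and 2 were again the highest libraries and KD replicate 3 was the lowest of all 6. This gave a log2 fold change of 0.48 (SE 0.397, interval −0.43 to 1.39, adjusted p = 0.40), and 0.98 without KD replicate 3 (SE 0.218, adjusted p = 0.011). The gene lies within the span of *Art3*, on the opposite strand, and whether strand was used in counting is not given in the sources used here.

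*Ccl2* (chr11:82035571-82037453) and *Ccl7* (chr11:82045712-82047525), both on the plus strand, encode attractants of monocytes. *Ccl2* had 98.9, 110.0 and 67.1 RPKM after KD and 77.7, 104.4 and 105.6 RPKM in control. *Ccl7* had 71.5, 80.0 and 50.9 RPKM after KD and 55.7, 82.0 and 72.0 RPKM in control. For both genes the groups overlapped and KD replicate 3 was the lowest library. The log2 fold changes were −0.08 for *Ccl2* (interval −0.56 to 0.41, adjusted p = 0.81) and −0.06 for *Ccl7* (interval −0.54 to 0.42, adjusted p = 0.86). On leaving out KD replicate 3 the values were 0.13 (adjusted p = 0.56) and 0.13 (adjusted p = 0.59). *Ccl2* overlaps *Gm17268* on the opposite strand.

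*Cxcl5* (chr5:90759360-90761624, plus strand), a further CXCR2 ligand, was the lowest of the 10 genes, with 0.569, 0.709 and 0.582 RPKM after KD and 0.558, 0.780 and 0.664 RPKM in control. The groups overlapped. In a fit without the filter on low values the log2 fold change was −0.04 (SE 0.0951, adjusted p = 0.83), which on this scale understates a change of so low a gene. On the same chromosome *Cxcl1*, another ligand of this receptor, had the highest mean of KD replicates 1 and 2 relative to control among the 10 genes (2.97 times).

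*Il6* (chr5:30013114-30019981, plus strand) encodes interleukin-6, a cytokine that signals through the shared receptor chain gp130. Its level was 5.01, 7.08 and 2.64 RPKM after KD and 1.76, 2.08 and 2.51 RPKM in control. All KD libraries lay above all control libraries, although KD replicate 3 exceeded the highest control library only slightly. The log2 fold change was 0.85 (SE 0.260, interval 0.26 to 1.45, adjusted p = 0.047, exact permutation p = 0.1, the smallest possible). Without KD replicate 3 it was 1.17 (adjusted p = 0.0014), and the call was lost when any one of the other 5 libraries was left out (adjusted p = 0.10 to 0.15). Its 4 accessions stood at 226 to 241% of control, with no overlap of the groups in 3 of them.

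*Csf1* (chr3:107741048-107760469, minus strand), macrophage colony-stimulating factor, had 56.0, 46.4 and 45.3 RPKM after KD and 40.9, 56.0 and 42.1 RPKM in control. The groups overlapped, and KD replicate 3 did not stand apart here. *Csf1* thus had a log2 fold change of 0.09 (interval −0.28 to 0.46, adjusted p = 0.69), and 0.15 without KD replicate 3 (adjusted p = 0.52). Its 11 accessions ranged from 100.2 to 111% of control.

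The feedback inhibitors did not pass the test. *Nfkbia* (chr12:55489410-55492647, minus strand), which encodes IκBα, had 12.8, 15.0 and 10.02 RPKM after KD and 11.0, 10.4 and 13.0 RPKM in control. The highest library was KD replicate 2 and the lowest KD replicate 3. The log2 fold change was 0.12 (SE 0.158, interval −0.25 to 0.48, adjusted p = 0.61), and 0.26 without KD replicate 3 (interval −0.04 to 0.57, adjusted p = 0.15). *Tnfaip3* (chr10:19000910-19015657, minus strand) encodes A20, a ubiquitin-editing enzyme that ends signalling from tumour necrosis factor receptors. Its level was 5.71, 6.14 and 2.40 RPKM after KD and 2.38, 1.52 and 3.38 RPKM in control. KD replicates 1 and 2 lay above the control range and KD replicate 3 within it. For *Tnfaip3* the log2 fold change was 0.71 (SE 0.302, unadjusted p = 0.047 and adjusted p = 0.12 by limma), and 1.05 without KD replicate 3 (SE 0.207, adjusted p = 0.0068).

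**Figure D3:**
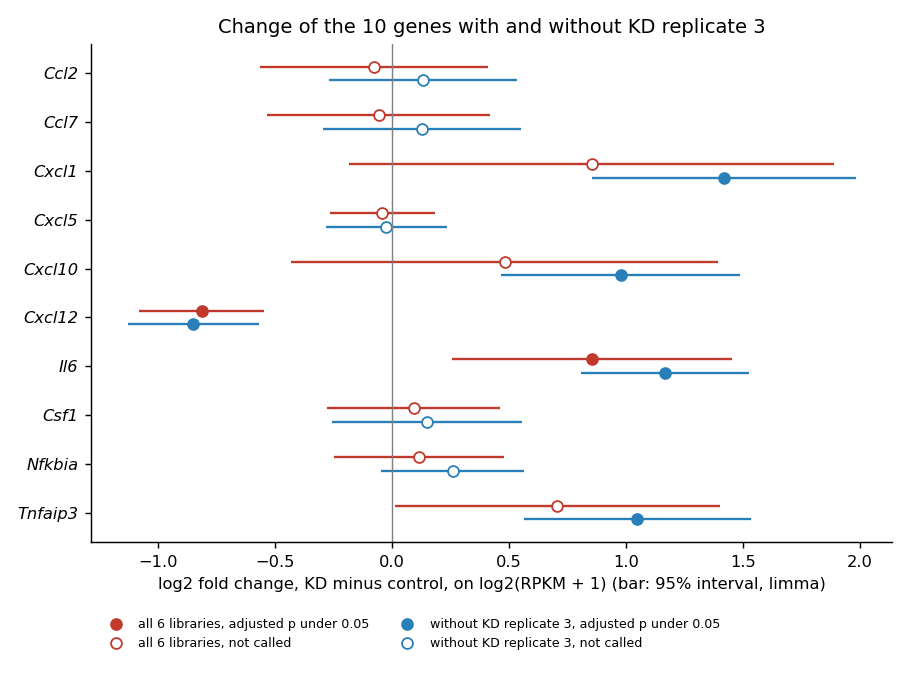
Log2 fold change (KD minus control, on log2(RPKM + 1)) of the 10 genes with 95% intervals from limma, with all 6 libraries (red) and without KD replicate 3 (blue); filled points had an adjusted p under 0.05, and *Cxcl5* comes from the fits without the filter. *Cxcl12* lay at −0.81 and −0.85 in both fits, while *Cxcl1*, *Cxcl10* and *Tnfaip3* had filled points only without KD replicate 3.

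Relative to the mean of KD replicates 1 and 2, KD replicate 3 held 25.3% of *Cxcl1*, 35.3% of *Cxcl10*, 40.5% of *Tnfaip3* and 43.7% of *Il6*. For *Ccl2*, *Ccl7* and *Nfkbia* it held 64.2%, 67.2% and 72.1%. *Csf1* and *Cxcl5* were closer, at 88.4% and 91.1%, and *Cxcl12* stood at 109%. The sum of 5 mesothelial markers had a similar order of libraries, with 30.8, 33.6 and 12.2 RPKM after KD and 15.1, 10.8 and 14.7 RPKM in control. This came mainly by the keratin gene *Krt19*, which did not pass with all libraries (log2 fold change 1.11, limma adjusted p = 0.091), while *Msln* and *Upk3b* were at or near 0. *Lrrn4*, the only 1 of the 2 tested markers that passed, went the other way (log2 fold change −0.42, adjusted p = 0.034). It had 3.11, 3.39 and 3.88 RPKM after KD and 5.48, 4.35 and 5.02 RPKM in control. KD replicate 3 had the highest *Ctcflos* level, the highest macrophage marker sum and the lowest depth of the KD group, and the part of these in the differences was not tested.

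For each gene tested, the gene whose deviations from the control mean were most alike over the 6 libraries was sought among all other genes tested. The likeness is the root mean square difference of these log2 deviations. *Cxcl10* was closest to *H2-K2*, a histocompatibility gene (0.0759), *Cxcl1* to *Gm14446* (0.152) and *Tnfaip3* to *BC023105* (0.0966). *Cxcl12* was closest to *Nxn* (0.0513), which fell by 0.78 on log2(RPKM + 1) (limma adjusted p = 0.0089). *Ccl2* was closest to *Tspan4* (0.101), *Ccl7* to *1700011J10Rik* (0.114) and *Nfkbia* to *Tmed10* (0.0254). For *Il6* and *Csf1* the closest entries were named in the table only by the accessions ENSMUST00000122165 (0.0895) and AK146690 (0.0739).

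Other genes of the pathway were taken from lists of which 113 further genes were tested. Of these 113 genes 24 passed, while of all 11701 genes tested 2803 passed (24.0%). With KD replicate 3 left out 65 passed, while of all 11704 genes 4810 passed (41.1%). The counts of each list in that fit are to be read against 23.3% of all genes called higher, 17.8% called lower and a median of 0.05. Among 15 tested subunits and activating kinases of NF-κB, 2 rose and 3 fell, with a median log2 fold change of 0.03 beside 0.03 for all genes. In the fit lacking KD replicate 3, 6 rose and 4 fell (median 0.12). *Irak1*, a kinase of interleukin-1 and Toll-like receptor signalling, had 0.961, 0.882 and 1.66 RPKM after KD and 3.43, 3.50 and 3.21 RPKM in control. All KD libraries lay below control, and the KD mean of *Irak1* was 34.6% of the control mean. On log2(RPKM + 1), which understates changes of low genes, it fell by 1.03 (limma adjusted p = 0.0052) and by 1.19 without KD replicate 3. *Tab2*, an adaptor of the kinase TAK1, rose by 0.68 (adjusted p = 0.019), and its paralogue *Tab3* fell by 0.41 (adjusted p = 0.030). *Traf2*, a signalling adaptor of tumour necrosis factor receptors, rose by 0.56 (adjusted p = 0.047). *Myd88*, the adaptor of Toll-like receptors and the most abundant of this list, had a log2 fold change of 0.56 that did not pass (adjusted p = 0.084). On leaving out KD replicate 3 the values were 0.85 for *Tab2*, −0.50 for *Tab3* and 0.75 for *Traf2*, all still past the threshold, and *Myd88* then passed with 0.80 (adjusted p = 0.0030).

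Of 14 other feedback genes tested, 1 rose and 1 fell, with a median of 0.01, and without KD replicate 3, 3 rose and 2 fell (median 0.13). *Nfkbiz*, which encodes an inducible nuclear IκB protein, had 7.35, 7.59 and 3.98 RPKM after KD and 3.52, 3.01 and 3.87 RPKM in control. The KD libraries lay above control, KD replicate 3 only just (log2 fold change 0.67, adjusted p = 0.049). *Tnip1*, a partner of A20, had 0.855, 1.01 and 0.993 RPKM after KD and 2.03, 1.83 and 2.43 RPKM in control. All KD libraries lay below control, and the KD mean was 45.5% of the control mean. The difference of group means on log2(RPKM + 1) was −0.66 (limma adjusted p = 0.0075). *Tax1bp1*, another A20 adaptor and the most abundant of this list, had a log2 fold change of 0.29 (adjusted p = 0.10). In the fit without KD replicate 3 the values were 0.93 for *Nfkbiz*, −0.67 for *Tnip1* and 0.32 for *Tax1bp1*, the last again not past the threshold (adjusted p = 0.066).

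Of 20 tested target genes of NF-κB other than the chemokines and cytokines, 3 rose and 2 fell, with a median of 0.24. Without KD replicate 3, 10 rose and 2 fell (median 0.37). *Ptgs2*, which encodes the inducible cyclooxygenase of prostaglandin synthesis, had 7.94, 8.34 and 5.07 RPKM after KD and 1.15, 1.75 and 1.57 RPKM in control. *Plaur*, the urokinase receptor, had 6.49, 6.26 and 3.70 RPKM after KD and 0.843, 1.40 and 1.05 RPKM in control. Both were higher in every KD library, KD replicate 3 included, with log2 fold changes of 1.69 (adjusted p = 0.0027) and 1.61 (adjusted p = 0.0037). The complement gene *C3* fell by 0.58 (adjusted p = 0.024) and *Sod2*, the mitochondrial superoxide dismutase, fell by 0.51 (adjusted p = 0.035). All 4 also passed without KD replicate 3, with 1.88 for *Ptgs2*, 1.82 for *Plaur*, −0.45 for *C3* and −0.53 for *Sod2*.

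Receptors upstream of NF-κB changed in both directions, 2 of 10 upward and 2 downward, with a median of 0.12, and without KD replicate 3, 5 upward and 2 downward (median 0.27). *Tnfrsf1b*, a receptor of tumour necrosis factor, had 6.22, 5.82 and 2.21 RPKM after KD and 1.70, 1.50 and 1.62 RPKM in control. Every KD library was higher (log2 fold change 1.05, adjusted p = 0.031). *Tnfrsf12a*, the receptor of the cytokine TWEAK, rose by 1.07 (adjusted p = 0.014), whereas both chains of the interleukin-1 receptor fell, *Il1rap* by 0.57 (adjusted p = 0.021) and *Il1r1* by 0.38 (adjusted p = 0.041). With KD replicate 3 left out these stood at 1.43 for *Tnfrsf1b*, 1.32 for *Tnfrsf12a*, −0.67 for *Il1rap* and −0.44 for *Il1r1*, all past the threshold. Of 14 receptors of the chemokines and cytokines, 12 were under the filter and neither of the 2 tested passed in limma. *Il6st*, which encodes gp130, was 1 of these, with a log2 fold change of −0.29 (unadjusted p = 0.027, the only one of the 2 under 0.05, adjusted p = 0.085). In the fit lacking KD replicate 3 *Il6st* had −0.26 (adjusted p = 0.0998). The other gene tested, *Ackr3*, had 0.56 with all libraries (limma adjusted p = 0.25). Without KD replicate 3 it had 0.98 (limma adjusted p = 0.0054), so that 1 of the 2 then passed.

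Of 13 genes of interleukin-6 and gp130 signalling 1 rose and 4 fell, with a median of −0.21, and without KD replicate 3, 2 rose and 4 fell (median −0.08). *Osmr*, the oncostatin M receptor, had 4.95, 4.72 and 3.77 RPKM after KD and 8.20, 8.53 and 10.5 RPKM in control. All KD libraries were lower, and KD replicate 3 was the lowest (log2 fold change −0.88, adjusted p = 0.0071). The kinase gene *Jak1* fell by 0.72 (adjusted p = 0.012), and the receptor genes *Lifr* and *Il11ra1* fell by 0.54 (adjusted p = 0.014) and 0.57 (adjusted p = 0.016). The phosphatase gene *Ptpn11*, the most abundant, had a log2 fold change of 0.16 (adjusted p = 0.33). On leaving out KD replicate 3 *Osmr* (−0.78), *Jak1* (−0.74), *Lifr* (−0.55) and *Il11ra1* (−0.63) passed again, and *Ptpn11* (0.21) did not.

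Of 9 other chemokines tested 1 rose, and none fell in limma. An unadjusted p under 0.05 was found for 4 of the 9, beside 4556 of all 11701 genes. *Cx3cl1*, which encodes fractalkine, had 1.88, 1.59 and 2.15 RPKM after KD and 0.845, 1.21 and 0.930 RPKM in control, with KD replicate 3 the highest library (log2 fold change 0.53, adjusted p = 0.017). *Cxcl9*, the most abundant, had a log2 fold change of −0.46 (adjusted p = 0.33). Without KD replicate 3, 2 of the 9 rose and 1 fell, and the values were 0.46 for *Cx3cl1*, which passed, and −0.05 for *Cxcl9*, which did not. Of 4 other cytokines 1 rose, *Clcf1*, a gp130 ligand, by 0.92 on log2(RPKM + 1) (limma adjusted p = 0.017) and by 1.09 without KD replicate 3. On leaving out that library 5 of these cytokines were tested, of which 2 rose and 1 fell. None of 12 genes that act in decay of inflammatory mRNAs passed in limma. At an unadjusted p under 0.05 they numbered 4, again beside 4556 of all 11701 genes. The most abundant, *Mapkapk2*, had a log2 fold change of −0.04 (adjusted p = 0.85). With KD replicate 3 left out, 4 of the 12 rose and 1 fell.

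*Cxcl10* also belongs to the genes that answer interferon. Of 15 such genes 1 fell and none rose in limma, with a median of 0.34. An unadjusted p under 0.05 was found for 3 of them, beside 4556 of all 11701 genes. Without KD replicate 3, 12 of these interferon genes rose and 1 fell, with a median of 0.65, against the 23.3% and 17.8% of all genes. Their summed level was 2826, 3353 and 1317 RPKM after KD and 1862, 1332 and 1976 RPKM in control, so that, as for *Cxcl10*, KD replicates 1 and 2 were the highest libraries and KD replicate 3 the lowest. *Ifit3*, the most abundant, had a log2 fold change of 0.38 (adjusted p = 0.42) and of 0.76 without that library (adjusted p = 0.028).

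**Figure D4:**
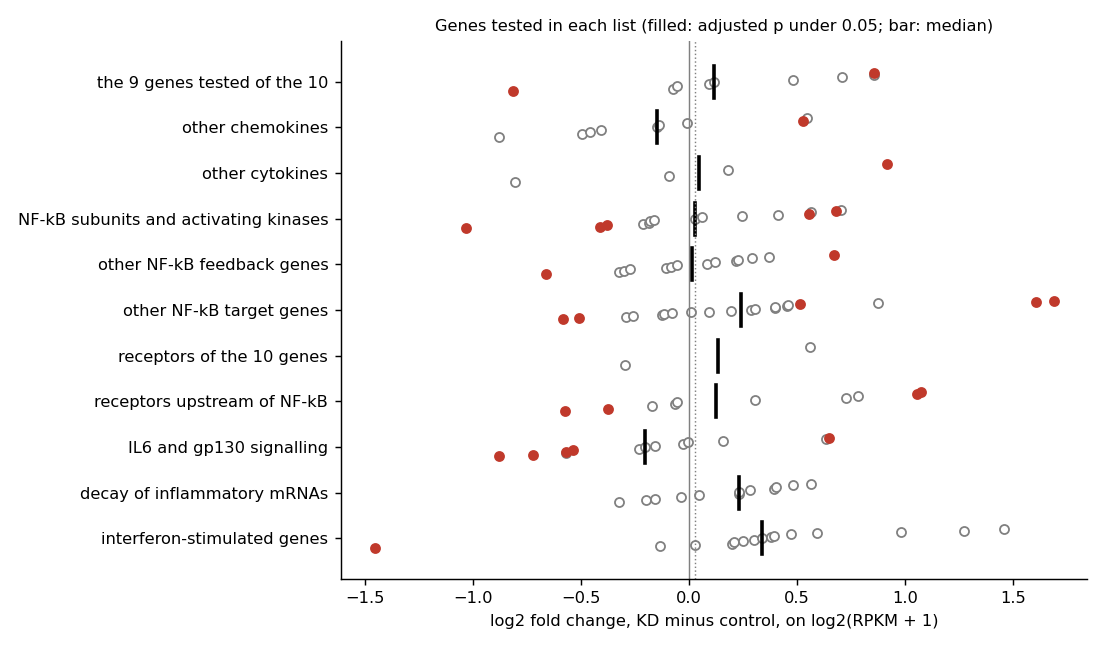
Log2 fold change (KD minus control, on log2(RPKM + 1), 6 libraries) of every gene tested in each list; filled points had an adjusted p under 0.05, black bars are list medians and the dotted line is the median of all genes (0.03). Filled points lay on both sides of 0 in most lists, with *Ptgs2* (1.69) and *Plaur* (1.61) at the right.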

How the data were processed

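Total RNA of 6 samples had been sequenced as 150 bp stranded paired-end libraries. The authors deposited 1 table of RPKM values per transcript accession, with 1 column per library. The program, annotation and strand setting that made it are not given in the sources used here. Of 168326 lines, 305 exact repeats were removed. A gene's value was the mean RPKM over the accessions of its symbol. Depth was recovered from low values that are whole multiples of 1 read (at least 95.1% whole within 0.1 reads), and read numbers on a transcript are approximate and rest on lengths of Gencode vM21.

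Groups came from the sample labels. Genes with a mean of at least 1 RPKM were tested by limma 3.58.1 with trended variance in R 4.3.3 on log2(RPKM + 1), a scale that understates changes of low genes, with Benjamini-Hochberg adjustment over all genes. *Cxcl5* and *Ctcflos* were read from the fit without that filter. The fit was tested on simulated data. Exact permutation tests were two-sided on mean RPKM. Tables and figures were made in Python 3.11.15.

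The 10 genes and the lists were chosen with earlier results of these data known. Named were the 10 genes, of each list the genes passing the test up to 4 by smallest p and the most abundant gene, and for each gene tested the gene most alike. Of the genes this rule names, 2 are not reported here. *Ackr3*, *Cebpa*, *Pdgfra*, *Lyz2* and the other markers were named after their values were seen. Replicate numbers were not taken as pairs. Alternatives were another pseudocount (0.1), no filter, scaling by the median of ratios, a replicate block, RefSeq accessions alone, the highest accession alone, no variance trend, and each library left out.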

Additional observations from a re-analysis of the deposited data

How the results depend on the processing

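*Cxcl12* was called in each of the 13 alternatives. *Il6* kept its direction in all of them. Its call was lost without the filter (0.85, adjusted p = 0.12), with a replicate block (0.85, adjusted p = 0.070) and without variance trend (0.85, adjusted p = 0.051). The call was also lost when any one library other than KD replicate 3 was left out (adjusted p = 0.10 to 0.15). Each of these fits left 1 gene of the 10 called. All genes called numbered 1807 without the filter and 1671 with the block against 2803, of which 1647 were shared with the block. Genes called in the other lists fell from 24 to 14 without the filter. The *Ctcflos* change of −0.66 had an adjusted p of 0.11 with the block, which changed no other call among the 10 genes. Correlations of deviations between libraries of equal replicate number were 0.29, −0.29 and −0.42 for numbers 1 to 3. As deviations from means of only 3 libraries they are not independent. They cannot decide whether libraries of equal number share a culture or animal.

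Leaving out 1 library at a time gave 1 to 5 of the 10 genes called, 6 to 65 genes of the other lists and 369 to 4810 of all genes. The highest counts came without KD replicate 3 and the lowest over all genes without control replicate 3. Log2 fold changes ranged from 0.59 to 1.17 for *Il6*, 0.53 to 1.42 for *Cxcl1*, 0.19 to 0.98 for *Cxcl10*, 0.50 to 1.05 for *Tnfaip3* and −0.88 to −0.73 for *Cxcl12*. Those of *Ctcflos* ranged from −0.72 to −0.63, with its call kept without KD replicate 3 and lost when any one of the other 5 libraries was left out (adjusted p = 0.062 to 0.130). Ranges that crossed 0 were −0.22 to 0.13 for *Ccl2*, −0.21 to 0.13 for *Ccl7*, −0.0020 to 0.23 for *Csf1*, −0.0087 to 0.26 for *Nfkbia* and −0.088 to 0.0078 for *Cxcl5*, none of which was called. *Ccl2* turned positive without KD replicate 3, *Ccl7* without KD replicate 3 or control replicate 2, *Cxcl5* without control replicate 2, and *Csf1* and *Nfkbia* turned negative without KD replicate 1 and 2. The cause was not tested. With 3 libraries a group, the exact tests could not reach a p below 0.1.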
